A study of Mus musculus with 22 samples.

Results

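Voltage-gated calcium channels let calcium into neurons when the membrane depolarises, and the transcripts described here were those of 10 genes of this family, found by their gene symbols among the 17306 genes of the expression table. Of these, 7 encode pore-forming α1 subunits and 3 encode α2δ subunits, and all 10 were among the 16765 genes with enough reads to be tested. The libraries came from lumbar (L4-L6) spinal cord of 22 wildtype C57BL6J mice aged 12 to 14 weeks, taken as the quadrant of the injured side per the study's methods. Every mouse had received 1 mg of monoiodoacetate (MIA) in the knee joint, which damages the joint and gives lasting pain, so that no group was free of injury. SAFit2, an inhibitor of the stress-related protein FKBP51, was given at 100 mg/kg in a vesicular phospholipid gel (VPG) and was compared with gel alone. The 4 groups were Early SAFit2 (5 mice; injections on days -3 and 4 relative to MIA in the series text, days 3 and 4 in the sample labels), Early Vehicle (6 mice; same days), Late SAFit2 (5 mice; days 20 and 27) and Late Vehicle (6 mice; same days), and cord was collected on day 30. The Early SAFit2 libraries carry SAFit1 in their titles and SAFit2 in their treatment label, which was followed. The labels also give the timing as the batch, so that early against late timing and batch cannot be told apart.

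In a calcium channel the α1 subunit forms the pore and senses voltage, and the α2δ and β subunits set how many channels reach the membrane and how they gate. CaV2 channels of the P/Q, N and R types trigger transmitter release at central terminals of pain fibres and at dorsal horn synapses, L-type (CaV1) channels couple activity to gene expression in the cell body, and T-type (CaV3) channels open near the resting potential and shape bursting. The α2δ-1 subunit, product of Cacna2d1, binds gabapentin and pregabalin, and the N-type channel, whose pore is made by Cacna1b, is the target of ziconotide.

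The members are spread over the genome (mm10). The CaV2 genes are Cacna1a (P/Q type; chr8:84388440-84640246), Cacna1b (N type; chr2:24603887-24763152) and Cacna1e (R type; chr1:154390731-154884501). The L-type genes are Cacna1c (chr6:118587240-119196418) and Cacna1d (chr14:30039939-30491455), and the T-type members are Cacna1g (chr11:94408391-94474198) and Cacna1h (chr17:25374285-25433783). The α2δ genes are Cacna2d1 (chr5:15934691-16374511), Cacna2d2 (chr9:107399612-107529343) and Cacna2d3 (chr14:28904943-29721864). Cacna1c shares its locus with Dcp1b, and Cacna1d with Chdh and Dcp1a, all on the opposite strand and all in the expression table. The strand setting of the counting is not given in the sources used here, so reads of these pairs may not be separated.

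The transcripts of these genes differ widely in base composition, and the late differences ran with it. The GC content of the longest annotated transcript was lowest in Cacna2d1 (40.7%) and highest in Cacna1h (60.0%), with Cacna1g at 58.1%. To show this, a coding stretch of 120 bases within 1 exon is printed for these 3 genes, chosen by its GC content being nearest to that of the whole transcript, from the GENCODE M21 transcripts (GRCm38), 5′ to 3′ with every G and C in capitals. They lie in exon 11 of Cacna2d1 (chr5:16299942-16300061, plus strand), exon 6 of Cacna1g (chr11:94462240-94462359, minus strand) and exon 7 of Cacna1h (chr17:25393917-25394036, minus strand).
Cacna2d1: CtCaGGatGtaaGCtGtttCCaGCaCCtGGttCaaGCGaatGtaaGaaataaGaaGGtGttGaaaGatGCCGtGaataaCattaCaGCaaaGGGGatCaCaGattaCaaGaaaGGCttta
Cacna1g: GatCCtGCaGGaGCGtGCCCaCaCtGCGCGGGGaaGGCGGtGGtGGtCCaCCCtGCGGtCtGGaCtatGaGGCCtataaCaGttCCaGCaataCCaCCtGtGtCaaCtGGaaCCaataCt
Cacna1h: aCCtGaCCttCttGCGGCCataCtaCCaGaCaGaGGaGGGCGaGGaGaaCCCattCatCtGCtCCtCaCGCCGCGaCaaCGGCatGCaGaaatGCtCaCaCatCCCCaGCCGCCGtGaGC

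Reads on genes ranged from 11352989 to 24433349 per library, and the lowest read number of any member was 39, for Cacna1d. The Late SAFit2 libraries had scaling factors of 0.774 to 0.946 (0.902 to 1.03 in Late Vehicle) and gave 3.31% to 16.5% of their reads to the noncoding RNA Bc1, against 1.32% to 7.55% in Late Vehicle. Mitochondrial genes took 1.59% to 2.42% of reads in Late SAFit2 and 0.790% to 2.01% in Late Vehicle. The part of these differences in the results that follow was not tested directly, apart from 1 fit with library sizes that left these genes out. In bulk tissue, fewer cells of a type and less RNA per cell cannot be told apart.

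The α2δ genes had the most transcript per length of all members, and the L-type genes the least. As reads scaled to library size (CPM) per kb of the longest transcript over the 22 mice, the median was 20.6 for Cacna2d3 (13.4 to 29.7), 14.7 for Cacna2d1 (9.84 to 23.0) and 11.7 for Cacna2d2 (6.91 to 14.6). Among the pore genes, Cacna1a led with a median of 7.45 (4.58 to 10.8), followed by Cacna1g at 5.82 (2.88 to 8.55). Levels of Cacna1e (2.78), Cacna1h (2.02) and Cacna1b (1.91) came next, and Cacna1d (1.07) and Cacna1c (0.873) were lowest. The ranges of every pair of neighbours in this order overlapped. Within single mice the order held in most pairs, with Cacna1a above Cacna1g in 22 of 22 mice, but Cacna1h was above Cacna1b in only 6 of 22. Dividing by the summed length of all exons in place of the longest transcript changed the rank of 4 members and placed Cacna2d1 (8.83) ahead of Cacna2d3 (8.72), so the order among the α2δ genes depends on the length used.

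**Figure D1:**
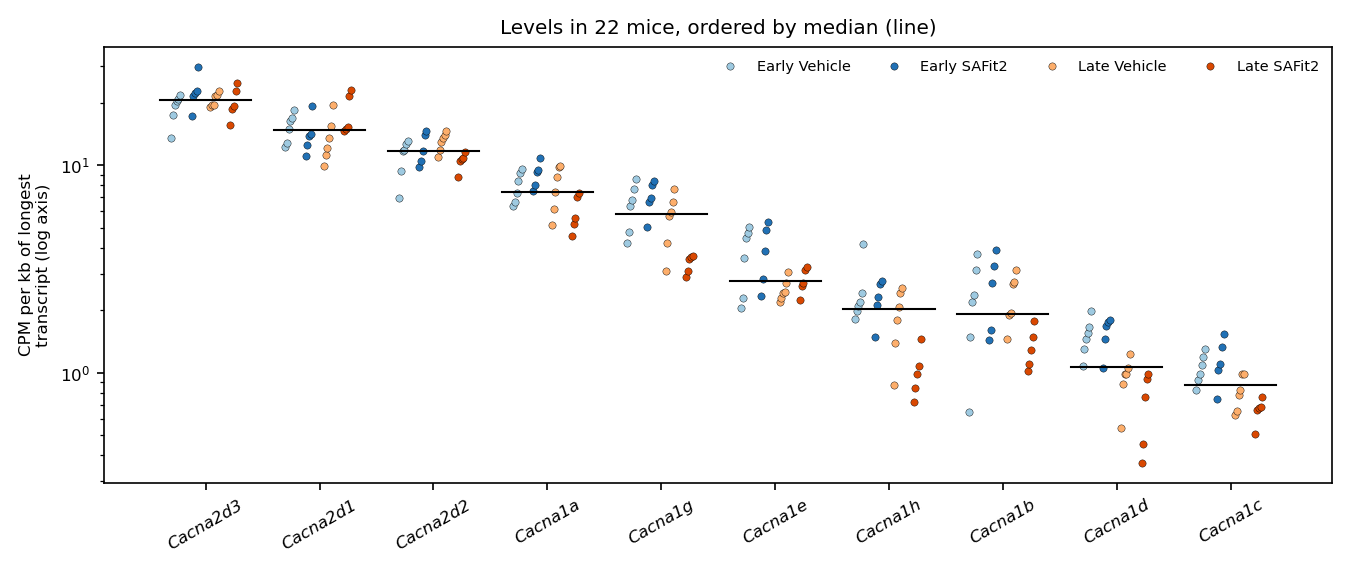
Level of each member in CPM per kb of the longest transcript (log axis) in 22 mice, with 1 point per mouse coloured by group and a line at the median. The α2δ genes lie at medians of 11.7 to 20.6 and the L-type genes Cacna1d and Cacna1c at 1.07 and 0.873, and the Late SAFit2 points of Cacna1g, Cacna1h, Cacna1b and Cacna1d lie low within their gene.

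The late comparison asks how the cord differed when SAFit2 was given after pain was established. Transcripts of both T-type members, Cacna1g and Cacna1h, were lower after late SAFit2 than after late vehicle and passed the threshold, and no other member did. The third T-type gene, Cacna1i, is not one of the 10 and, named here after its values were seen, differed by -0.43 (SE 0.20) without passing (adjusted p = 0.123 in limma), and by 0.14 after GC and length correction. A gene was called at an adjusted p under 0.05 (limma, Benjamini-Hochberg over all genes tested) and a change of at least 1.2-fold. By this rule 2 of 10 members were called, against 12.1% of all genes, and both were lower, against 6.72% of all genes called lower. At an unadjusted p under 0.05 there were 6 of 10, 5 lower and 1 higher, against 34.5% of all genes. The median log2 fold change of the members was -0.35, beside -0.05 for all genes.

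Cacna1g, a T-type pore gene of central neurons, had log2 CPM values of 4.95, 4.60, 4.89, 4.70 and 4.92 in the Late SAFit2 mice and a lowest, median and highest of 4.70, 5.61 and 6.01 in Late Vehicle. All 5 SAFit2 mice were below 5 of the 6 vehicle mice, and the groups overlapped only through Late Vehicle replicate 6 at 4.70. The difference was -0.67 on the log2 scale (SE 0.20), or 1.59-fold lower, with an adjusted p of 0.0375 in limma. A two-sided exact permutation test of the 11 mice gave p = 0.0238, unadjusted, as are all permutation p-values that follow. Cacna1h, the T-type gene best known from nociceptors, had values of 3.59, 2.59, 3.17, 3.04 and 2.82 in Late SAFit2 and a lowest, median and highest of 2.87, 4.00 and 4.41 in Late Vehicle. All 5 SAFit2 mice were below the vehicle mean, and Late Vehicle replicates 2 and 6, at 2.87 and 3.53, lay within the SAFit2 range. It was 1.75-fold lower, a log2 difference of -0.81 (SE 0.25) with an adjusted p of 0.0415 in limma and p = 0.0303 in the exact permutation test.

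These calls rested on most of the late libraries. Cacna1g and Cacna1h both lost the call when Late SAFit2 replicate 2, 4 or 5 or Late Vehicle replicate 1, 3, 4 or 5 was left out, with adjusted p up to 0.112 and 0.117, while between 1 and 8 genes of all tested were then called, and Cacna1h alone lost it without Late SAFit2 replicate 3 (adjusted p = 0.0506) or Early SAFit2 replicate 4 (0.0509). Without Late Vehicle replicate 6, which had the lowest Cacna1g and Cacna1a of its group, 5 members were called (Cacna1a, Cacna1b, Cacna1g and Cacna1h lower, Cacna2d1 higher). In that fit 4975 of 16703 genes were called.

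Among the CaV2 genes, Cacna1b had the widest difference, and Cacna1e was the one with a value above 0. Cacna1b had log2 CPM values of 4.12, 3.44, 3.86, 3.33 and 3.65 in Late SAFit2, and 3.83, 4.48 and 4.93 as the lowest, median and highest in Late Vehicle. In 3 of 5 SAFit2 mice it was below every vehicle mouse. The difference of -0.77 (SE 0.33) did not pass in limma (unadjusted p = 0.0267, adjusted p = 0.0997). The exact permutation test gave an unadjusted p = 0.0130. For Cacna1a, the main pore gene of central synapses, the SAFit2 mice had 5.80, 5.36, 5.86, 5.47 and 5.19 and the vehicle mice 5.36, 6.0 and 6.29 as lowest, median and highest. These ranges overlapped, and the difference of -0.39 (SE 0.16) had an adjusted p of 0.0944. Cacna1e, the R-type gene, ranged from 5.07 to 5.6 in Late SAFit2 and from 5.03 to 5.52 in Late Vehicle, a difference of 0.15 (SE 0.21, adjusted p = 0.657).

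The L-type members had values in the same direction as the T-type members but did not pass. Cacna1d, which opens at more negative voltages than other L-type channels, had values of 1.87, 2.91, 3.18, 3.27 and 2.17 in Late SAFit2, and 2.42, 3.26 and 3.58 as the lowest, median and highest in Late Vehicle. SAFit2 replicates 1 and 5 were below every vehicle mouse and the other 3 lay within the vehicle range. Its difference was -0.49 (SE 0.24, adjusted p = 0.150), and that of Cacna1c, the most widely expressed L-type gene, was -0.29 (SE 0.18, adjusted p = 0.259).

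The α2δ genes went different ways. Cacna2d1, the gabapentinoid target, had values of 6.77, 6.79, 6.83, 7.32 and 7.42 in the Late SAFit2 mice, and 6.20, 6.56 and 7.17 as the lowest, median and highest in Late Vehicle. All 5 SAFit2 mice were above the vehicle mean and 2 were above every vehicle mouse. It was 1.32-fold higher on average, a log2 difference of 0.40 (SE 0.17) that did not pass (adjusted p = 0.0888 in limma, p = 0.0801 in the exact permutation test). Cacna2d2, whose product pairs with P/Q-type channels in cerebellum, had values of 6.07, 5.67, 5.93, 5.96 and 5.97 in Late SAFit2 and 6.0, 6.26 and 6.41 as the lowest, median and highest in Late Vehicle. In 4 of 5 SAFit2 mice it was below every vehicle mouse, yet the difference was small, -0.31 (SE 0.14). In limma the p was 0.0356 unadjusted and 0.118 adjusted, and the exact permutation test gave an unadjusted p = 0.00866. Cacna2d3, a gene tied to heat pain in flies and mice, differed by -0.04 (SE 0.14).

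**Figure D2:**
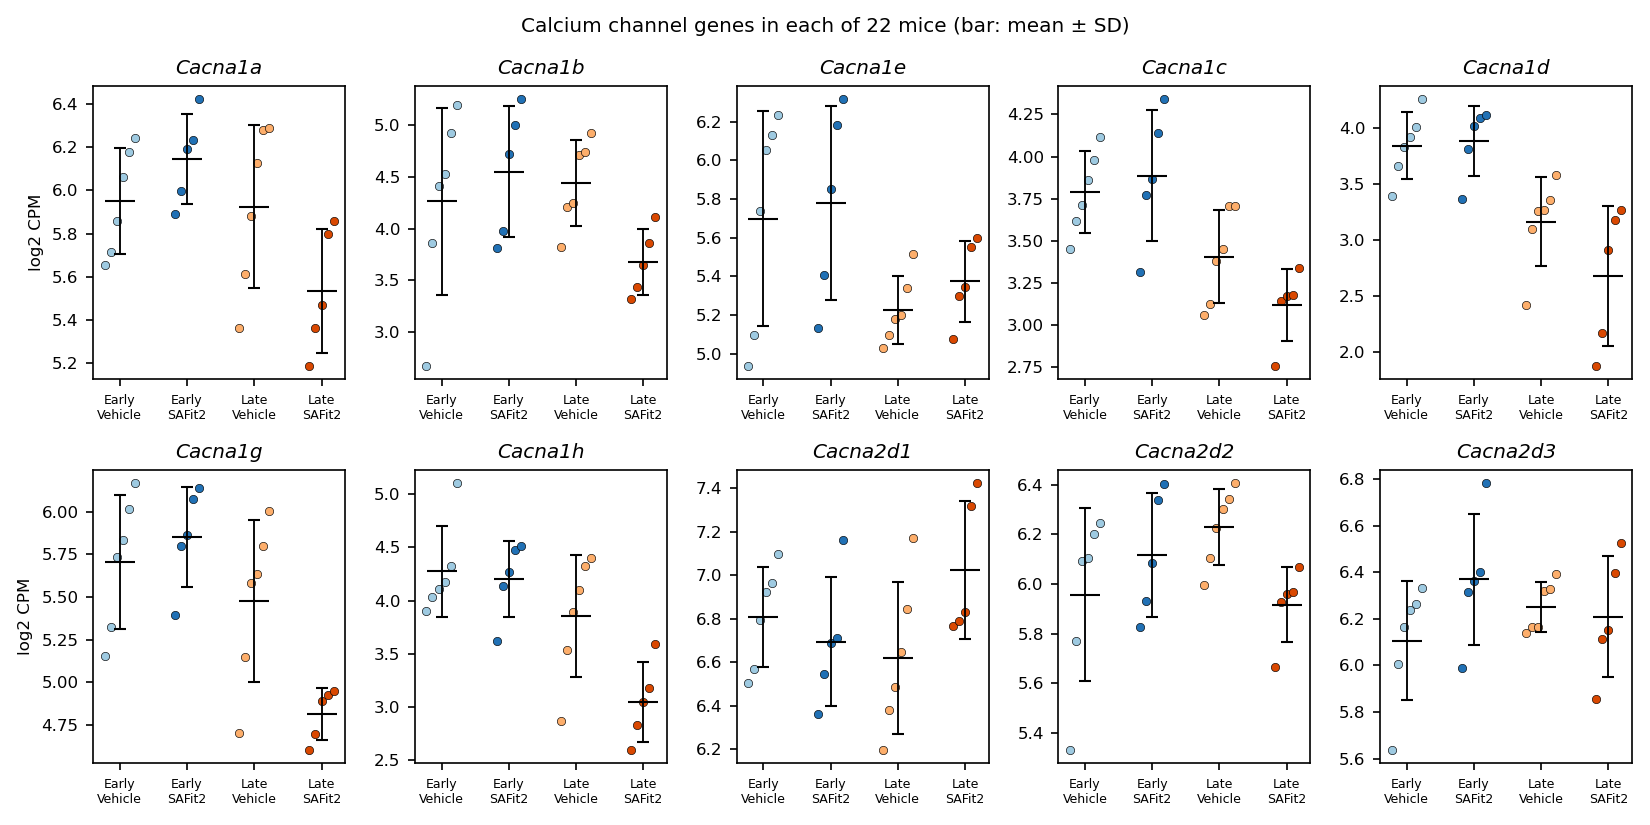
Log2 CPM of the 10 members in each mouse of the 4 groups, with 1 point per mouse and a bar at the mean ± SD. Cacna1g lies between 4.60 and 4.95 in Late SAFit2 and up to 6.01 in Late Vehicle, and Cacna2d1 has its highest values, 7.32 and 7.42, in Late SAFit2.

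The late differences of the members ran with the GC content of their transcripts, as did those of all genes. Over the 10 members Pearson's r between GC content and the late log2 fold change was -0.82, given as a description because the genes share the same libraries, and over all 16213 genes with a known GC content it was -0.61. Cacna2d1, at the low end of GC content, was the member with the highest value, and Cacna1h, at the high end, the one with the lowest. The slope of each library on GC content, taken over all genes against their mean in the 22 libraries, ranged from -0.48 to -0.05 in Late SAFit2 and from -0.32 to 0.49 in Late Vehicle (log2 per 10 percentage points of GC). Replicates 2 and 6 were the Late Vehicle libraries with slopes below 0, and they also had the lowest Cacna1g of that group, 5.15 and 4.70.

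After the trend on GC content and transcript length was taken out of every library, no member and no gene at all was called in the late comparison with limma, although 2597 genes had an unadjusted p under 0.05. At that p there was 1 member of 10, Cacna1b, against 16% of all genes. The differences became -0.16 (SE 0.09) for Cacna1g and -0.21 (SE 0.16) for Cacna1h, with adjusted p of 0.371 and 0.519. Those of Cacna1a (0.13), Cacna2d2 (0.09) and Cacna2d3 (from -0.04 to 0.02) changed sign, and Cacna2d1 went to 0.12 (SE 0.10). Cacna1b and Cacna1d kept most of theirs, at -0.51 (SE 0.24, adjusted p = 0.304) and -0.39 (SE 0.20, adjusted p = 0.332). The correction would also remove any part of an effect of SAFit2 that itself followed GC content, so which of the 2 values is nearer to the change in the cord was not tested.

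**Figure D3:**
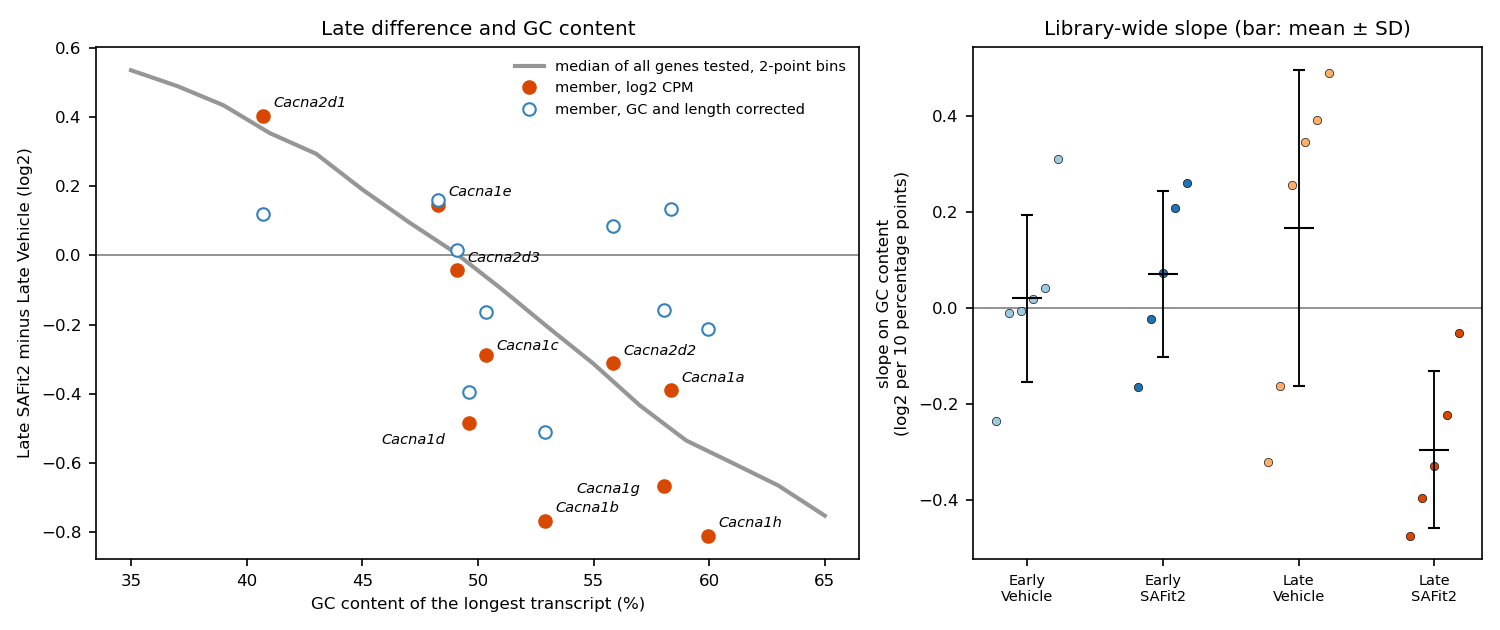
Left, late log2 difference of each member against the GC content of its longest transcript, before (filled) and after (open) removal of each library's trend, with the median of all genes tested in bins of 2 percentage points as a line. Right, slope of each library on GC content, with 1 point per mouse and a bar at the mean ± SD. The members run from 0.40 for Cacna2d1 to -0.81 for Cacna1h, and the slopes are lowest in Late SAFit2.

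The early comparison asks whether treatment around the time of injury left a difference in the cord at day 30. No member was called, and 0 of 16765 genes were called by limma (0% of all genes, with 416 or 2.48% at an unadjusted p under 0.05). No member reached that unadjusted p before GC and length correction. Limma voom on reads also called 0 genes, with 423 at that p. The members' differences ran from -0.11 (Cacna2d1) to 0.29 (Cacna1b) with standard errors of 0.14 to 0.33, and 8 of 10 were above 0. Cacna2d3 had the lowest p of the members (0.0639 unadjusted in limma). It had values of 6.78, 5.99, 6.40, 6.36 and 6.31 in Early SAFit2 and 5.64, 6.20 and 6.33 as the lowest, median and highest in Early Vehicle, with 3 of 5 SAFit2 mice above every vehicle mouse. The difference of 0.26 (SE 0.14) had p = 0.147 in the exact permutation test. After GC and length correction it was 0.27 (SE 0.13), with an unadjusted p of 0.0450 and an adjusted p of 0.982 in limma. Cacna2d3 was then the 1 member of 10 with an unadjusted p under 0.05, against 724 of 16213 genes, with 0 called. Cacna1g differed by 0.15 (SE 0.20) and Cacna1h by -0.07 (SE 0.25).

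Spread between mice was wide for Cacna1b and Cacna1e in the early groups, though not for Cacna1a, whose SD was 0.21 and 0.25 there against 0.29 and 0.38 in the late groups. Cacna1b had an SD of 0.63 in Early SAFit2 and 0.90 in Early Vehicle, against 0.32 and 0.42 in the late groups. Early Vehicle replicate 5, at 2.67, had less than any other of the 22 mice. Cacna1e likewise ranged from 4.94 to 6.23 in Early Vehicle.

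**Figure D4:**
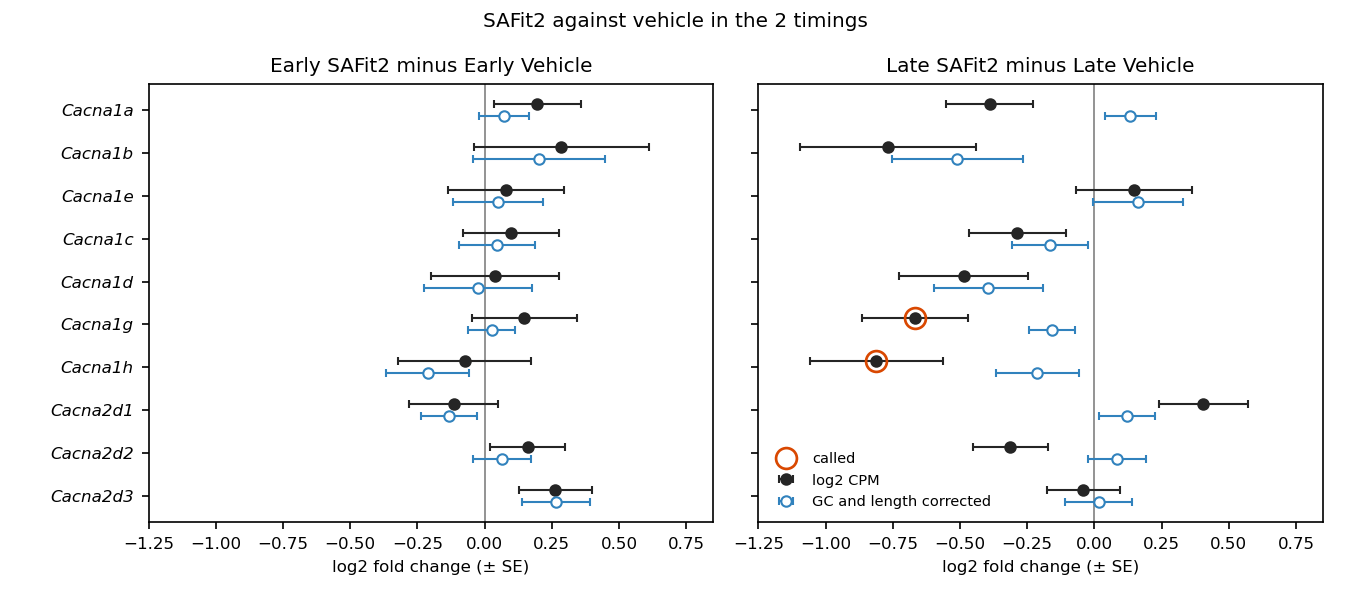
Log2 fold change of each member between SAFit2 and vehicle in the early (left) and late (right) timings, ± SE, from log2 CPM (filled) and after GC and length correction (open); rings mark called genes. Cacna1g and Cacna1h are ringed in the late panel at -0.67 and -0.81 and move to -0.16 and -0.21 after the correction, and early values lie between -0.11 and 0.29.

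The difference between the early and the late effect was tested in the same fit. No member and no gene was called by limma (0% of all genes), although 4167 genes had an unadjusted p under 0.05, and limma voom on reads also called 0 genes, with 4022 at that p. At an unadjusted p under 0.05 there were 6 of 10 members, against 24.9% of all genes. The widest were Cacna1b, whose early effect was above its late effect by 1.05 (SE 0.46), and Cacna1g, by 0.82 (SE 0.28, adjusted p = 0.120). Exact permutation of treatment within timing gave p under 0.05 for 3 members, namely Cacna1g (p = 0.0223), Cacna1a (p = 0.0298) and Cacna2d2 (p = 0.0309), unadjusted over the 10. After GC and length correction their differences were 0.18, -0.06 and -0.02. For the mean of both effects, 1 of 10 members had an unadjusted p under 0.05, against 13.2% of all genes. This was Cacna1h, with a mean effect of -0.44 (SE 0.18), an unadjusted p of 0.0183 and an adjusted p of 0.345 in limma.

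Between the vehicle groups, which differ in timing and in batch, the L-type gene Cacna1d had the widest difference of the members. No member was called, against 9.11% of all genes, and 3 of 10 had an unadjusted p under 0.05, against 24.3% of all genes. Cacna1d had a lowest, median and highest of 3.4, 3.88 and 4.26 in Early Vehicle and of 2.42, 3.26 and 3.58 in Late Vehicle. In 5 of 6 late mice it was below every early mouse. The late level was 1.60-fold lower, a log2 difference of -0.68 (SE 0.23). In limma the p was 0.00605 unadjusted and 0.0584 adjusted, and the exact permutation test gave an unadjusted p = 0.00433. Cacna1c differed by -0.38 (SE 0.17, exact permutation p = 0.0325) and Cacna1e differed by -0.47 (SE 0.20, exact permutation p = 0.0823). After GC and length correction 2 members were called, against 18.3% of all genes. These were Cacna1d (-0.58, SE 0.19, adjusted p = 0.0339) and Cacna1h (-0.44, SE 0.15, adjusted p = 0.0350). Limma voom on reads also called Cacna1d (-0.71).

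As a share of the summed CPM per kb of the 7 pore members, which leaves out Cacna1i and the other pore genes, and with no test, the T-type members Cacna1g and Cacna1h made up 27.7% ± 1.9 (SD, n = 5) of the Late SAFit2 sum and 33.3% ± 3.5 (n = 6) of the Late Vehicle sum. In the early groups the shares were 34.0% ± 3.7 (SAFit2) and 35.0% ± 2.2 (Vehicle). Cacna1i, left out of these shares, had a mean log2 CPM of 5.20 in Late SAFit2 and 5.63 in Late Vehicle. The means of Cacna1g were 4.81 and 5.48, so these are not shares of all T-type transcripts. The CaV2 share was 63.6% ± 1.6 in Late SAFit2 and 58.6% ± 3.4 in Late Vehicle, while the L-type share was 8.72% ± 2.3 and 8.09% ± 0.90. The T-type shares of the late groups overlapped, at 26.1% to 30.1% and 28.6% to 37.6%. Among the α2δ genes, Cacna2d1 made up 36.6% ± 7.1 in Late SAFit2, 28.5% ± 5.2 in Late Vehicle, 28.9% ± 4.0 in Early SAFit2 and 33.9% ± 4.5 in Early Vehicle, so the early and late differences of this share had opposite signs. These shares were not corrected for GC content, and their relation to it was not tested.

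**Figure D5:**
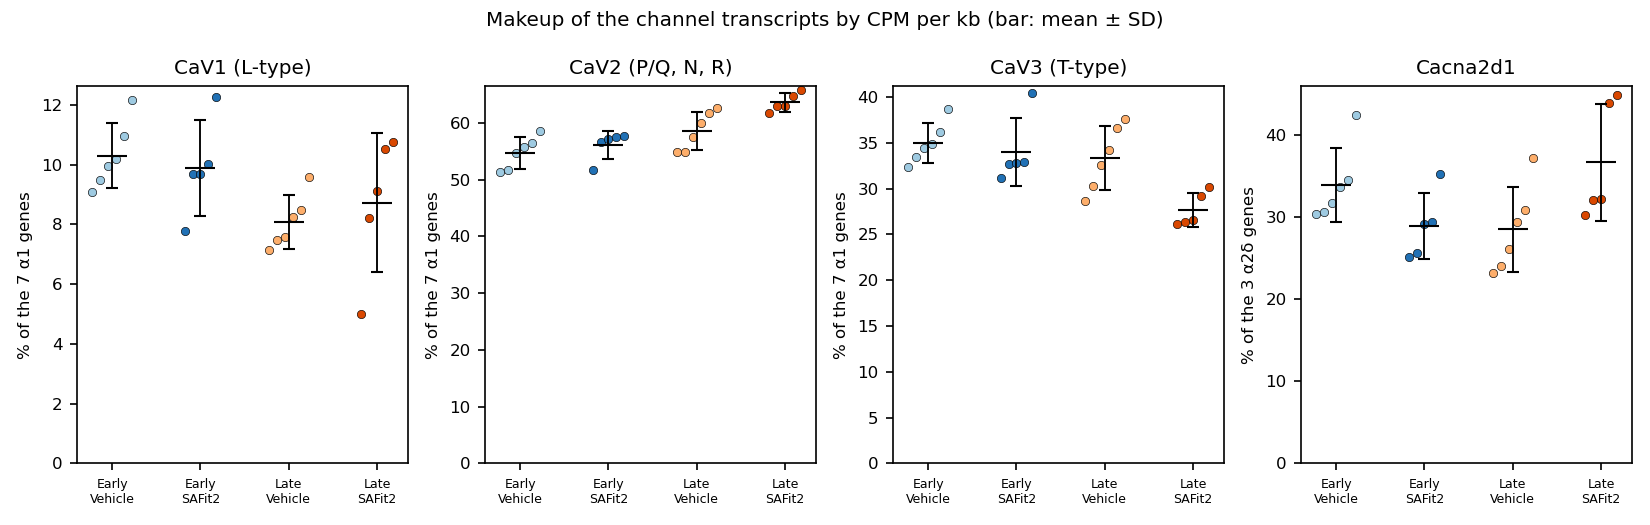
Share of CaV1, CaV2 and CaV3 genes in the CPM per kb of the 7 pore genes, and of Cacna2d1 in that of the 3 α2δ genes, with 1 point per mouse and a bar at the mean ± SD. The CaV3 share (Cacna1g and Cacna1h) of Late SAFit2, with a mean of 27.7%, is the lowest of the 4 groups, and the late groups overlap.

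Of 16 other channel genes (further α1 and α2δ genes, β and γ subunits), 13 were tested, and in the late comparison 2 were called, both lower, a share near the 12.1% of all genes called. These were Cacnb3, a β subunit that carries N-type channels to the membrane, with a difference of -0.58 (SE 0.16, adjusted p = 0.0346 in limma), and Cacng4, a γ subunit that also serves as an auxiliary subunit of AMPA receptors, with -1.04 (SE 0.23, adjusted p = 0.0324). The other β genes did not pass, with differences of -0.68 (SE 0.24) for Cacnb1, 0.08 (SE 0.16) for Cacnb2 and 0.40 (SE 0.14) for Cacnb4. The β genes with values below 0 were the ones rich in GC, at 61.3% for Cacnb3 and 59.7% for Cacnb1 against 40.5% for Cacnb4 and 39.0% for Cacnb2. After GC and length correction Cacnb3 stood at 0.06 and Cacng4 at -0.71. None of the 13 was called in the early comparison or between the vehicle groups.

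Of 24 genes for partners and regulators of the channels, all were tested and 3 were called in the late comparison, again near the 12.1% of all genes. Cabp1, a neuronal calcium sensor that binds L-type and P/Q-type channels, differed by -0.77 (SE 0.20, adjusted p = 0.0324 in limma), Camk2b, a calcium-activated kinase subunit, differed by -0.42 (SE 0.14, adjusted p = 0.0453), and Fmr1, whose protein binds N-type channels, by 0.45 (SE 0.15, adjusted p = 0.0477). After the correction they stood at -0.52, -0.12 and 0.09. No partner was called in the early comparison. Between the vehicle groups 3 were called, against 9.11% of all genes, with Ncs1 (0.50) and Calm3 (0.49), both calcium sensors, higher in Late Vehicle and Stac3 (-1.98), a part of the muscle channel complex, lower. Stac3 was near the floor, with a mean log2 CPM of 0.05 in Early Vehicle and -1.93 in Late Vehicle. Its lowest Late Vehicle value was the floor itself, -3.154. For the mean of both effects, where an unadjusted p under 0.05 was the rule, 4 of the 13 channel genes (Cacnb3, Cacng4, Cacnb4 and Cacng2) and 4 of the 24 partners (Thbs2, Cabp1, Thbs1 and Calm2) reached it, against 13.2% of all genes.

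The tissue carried neuronal markers in every group, with a summed level of 8 neuronal genes of 7619 to 7973 CPM in Late SAFit2 and 6692 to 7532 CPM in Late Vehicle. Of these 8 genes, 4 were higher and 4 lower in Late SAFit2 (median -0.03, 1 called). Markers of inhibitory neurons summed to 502 to 666 CPM in Late SAFit2 and 629 to 753 CPM in Late Vehicle, with 3 of 5 lower (median -0.55, 1 called). Markers of excitatory neurons summed to 403 to 508 and 288 to 491 CPM. No marker measured on these lists was at 0 in all mice of a group. Of 6 markers of ganglion sensory neurons, the cells in which Cacna1h is best known, 1 was in the table, at 0.801 to 5.73 CPM in Late SAFit2. Among other cells, ependymal markers (5 of 5 lower, 1 called; 17.6 to 41.0 CPM against 28.5 to 61.3 CPM), Schwann cell markers (5 of 5 lower, 0 called; 39.0 to 2960 CPM against 621 to 1365 CPM), mural cell markers (5 of 6 lower, 0 called; 59.9 to 79.6 CPM against 59.6 to 83.6 CPM) and skeletal muscle markers (5 of 5 measured higher, 1 called; 2.30 to 196 CPM against 1.68 to 4.24 CPM) had values that ran mostly one way in the late comparison. The summed median of the Schwann cell markers was nonetheless higher in Late SAFit2, at 1126 CPM against 1039 CPM in Late Vehicle. That of the muscle markers was 5.62 CPM against 3.55 CPM. Between the vehicle groups, in Late against Early Vehicle, astrocyte markers (6 of 7 higher, 2 called; 5069 to 6095 CPM against 4180 to 5327 CPM), endothelial markers (5 of 5 higher, 1 called; 155 to 211 CPM against 140 to 192 CPM) and Schwann cell markers (5 of 5 lower, 0 called; 621 to 1365 CPM against 643 to 2436 CPM) also ran mostly one way. So did microglial markers (5 of 6 higher, 0 called, at 192 to 216 CPM against 143 to 194 CPM). Markers of oligodendrocyte precursors (4 of 4, 0 called), motor neurons (5 of 6, 0 called), inhibitory neurons (4 of 5, 1 called) and ependyma (4 of 5, 0 called) were mostly higher too. In the early comparison, markers of Schwann cells (5 of 5), mural cells (5 of 6), skeletal muscle (4 of 5) and inhibitory neurons (4 of 5) were mostly higher in Early SAFit2. Those of astrocytes (6 of 7), microglia (5 of 6), motor neurons (5 of 6) and ependyma (4 of 5) were mostly lower, and 0 were called on any list. Summed medians went the other way for Schwann cells (1323 CPM against 1368 CPM in Early Vehicle) and motor neurons (116 against 68.3 CPM). The part of these cell types in the members' differences was not tested.

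Across the 22 mice, after subtraction of each group's mean, the 5 genes whose log2 CPM was most like that of Cacna2d1 were Necab1 (r = 0.94), Grm5, Cdk17, Xiap and Scn3a. Those most like Cacna1b were Prrc2b (r = 0.95), Fads2, Gabbr2, Cnnm1 and Tcaf1. The correlations are a description of libraries from the early and late batches, which differ in their slope on GC content. The transcripts most like Cacna2d1 had GC contents of 36.8% to 44.6%, and those most like Cacna1b of 46.1% to 57.1%. Among the members, Cacna1g was the one closest to Cacna1b (r = 0.84), and Cacna1a the one least like Cacna2d1 (r = -0.55).

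FKBP51 acts on the glucocorticoid receptor, which binds DNA at a palindrome of the half-site AGAACA. RefSeq promoter windows (GRCm38.p6, 250 bases before to 50 after a start) were at hand for 7 of the 10 members, in 10 windows. The full motif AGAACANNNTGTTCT was in 0 of these 10, and in 0.00913% of all 32851 windows. At least 1 half-site on either strand was in 2 of 10 (20%), against 19.0% of all windows, so the members' share was near that of all promoters. Both windows belong to L-type genes and are printed, as the ones that hold a match, 5′ to 3′ on the gene's strand (minus) with half-sites in capitals, for Cacna1c at chr6:118757925-118758224 and Cacna1d at chr14:30491107-30491406. In the Cacna1c window the half-site is present in both orientations without a gap, which is not the spacing of the full motif. A match in the sequence is no evidence of binding.
Cacna1c: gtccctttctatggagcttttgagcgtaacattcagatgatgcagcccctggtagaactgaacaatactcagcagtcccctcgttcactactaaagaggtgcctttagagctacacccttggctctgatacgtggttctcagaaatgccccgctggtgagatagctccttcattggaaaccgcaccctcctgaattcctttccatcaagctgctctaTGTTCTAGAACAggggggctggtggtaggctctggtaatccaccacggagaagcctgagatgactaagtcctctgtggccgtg
Cacna1d: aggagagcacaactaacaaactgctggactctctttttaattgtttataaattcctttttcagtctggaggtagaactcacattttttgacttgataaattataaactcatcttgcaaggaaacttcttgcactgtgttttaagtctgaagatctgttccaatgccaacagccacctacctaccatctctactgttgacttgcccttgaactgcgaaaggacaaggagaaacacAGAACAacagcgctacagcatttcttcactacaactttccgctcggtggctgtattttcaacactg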

How the data were processed

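Spinal cord RNA of 22 mice was sequenced from directional libraries. Per the labels, the authors used Trimmomatic, HISAT2, edgeR and the mm10 build, and deposited 1 table of log2 CPM per gene and mouse (TMM-scaled; featureCounts per the study's methods). The floor of the deposited log2 values, -3.154, is that of a prior of 2.0 reads, and with it 100.0% of values gave whole reads (within 0.02). No count model was the main test, since the values are log2 CPM.

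Genes reaching -1 on the log2 CPM scale in 5 or more libraries were fitted with limma (3.58.1; R 4.3.3) with a variance trend, 4 group means and 1 shared spread, at an adjusted p of 0.05 and 1.2-fold. SE is from this fit, SD is over mice. Single genes were tested by exact permutation of mice (two-sided), with p-values not adjusted over genes. GC content and length of the longest GENCODE M21 transcript (96.5% of genes) were removed per library by loess (span 0.5). Transcript levels were CPM per kb.

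Alternatives were other filters, pseudocounts, scalings, variance models, library weights, a replicate block and voom on recovered reads (876 genes called in the late comparison, 0 in the early). P-values measure spread between mice of 1 experiment. The members and lists were chosen with earlier results of these data known. Text names all members, the β subunits, called genes of the lists (at most 8 by p) and the 5 genes most like Cacna2d1 and Cacna1b.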

Additional observations from a re-analysis of the deposited data

Results flagged for a closer look

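In 40 sets of mice (10 members in 4 groups), 1 had a mouse far from the others by Dixon's criterion, which chance meets in about 1 of 20 sets. Cacna1h was highest in Early Vehicle replicate 1, at 5.10 log2 CPM, with the next mouse at 4.33.

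The SAFit2 effect differed between the timings for 3 of 10 members by exact permutation of treatment within timing, with p-values unadjusted over the members, and by limma 24.9% of all genes had an unadjusted p under 0.05 for this difference. In these exact permutation tests the early effect minus the late effect was 0.82 on the log2 scale for Cacna1g (p = 0.0223), 0.59 for Cacna1a (p = 0.0298) and 0.47 for Cacna2d2 (p = 0.0309), and in limma none of the 3 passed after adjustment (adjusted p of 0.120, 0.136 and 0.150). After GC and length correction the 3 differences were 0.18, -0.06 and -0.02. Timing and batch cannot be told apart here.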

How the results depend on the processing

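In the late comparison 2 members were called; none was after GC and length correction (0, with the replicate block also 0), with only the late groups in the fit (0), with voom on reads (0) or without a variance trend (0), and 1 was after quantile normalization. The replicate block, which added Cacna1a and Cacna2d1, called 4 and library quality weights 6; leaving out 1 library gave 0 to 5, and the other 7 alternatives gave 2. Whether the replicate numbers of the labels pair mice is not settled here, since differently numbered mice were not compared. Deviations of same-numbered mice within a timing had r of -0.24 to 0.32, with 2 of 10 pairs over 0.1. For the mean effect (1 at an unadjusted p under 0.05) the count was 0 after GC and length correction with or without the replicate block, 2 with the replicate block, 4 with library quality weights and 1 to 3 leaving out 1 library. For early minus late (0) it was 6 with library quality weights and 0 to 2 leaving out 1 library (2 without Late Vehicle replicate 6, Cacna1a and Cacna1g). Between vehicle groups (0) it was 2 after GC and length correction with or without the replicate block, 4 with library quality weights, 1 (Cacna1d) each with a pseudocount of 2 CPM, voom, the 2 groups alone and library sizes without Bc1 and mitochondrial genes (chosen after seeing the data), and 0 to 1 leaving out 1 library. The early count stayed at 0 in all 15 alternatives and all 22 fits without 1 library. The causes of these changes were not tested. Of the 2021 genes called late, 894 were higher and 1127 lower; median centring gave 1139 and 924, and library sizes without Bc1 and mitochondrial genes 419 and 1989. Late calls over all genes came to 62 without a trend, 0 with the late groups alone or after GC and length correction, 876 with voom, 1231 with quantile normalization, 3157 with the replicate block, 6381 with library quality weights and 1 to 4975 leaving out 1 library. With library quality weights, 6396 of 16765 genes reached the rule for the mean effect, against 2215 in the main fit. The same weights called 5082 genes for early minus late (0 in the main fit) and 5067 between vehicle groups (1527 in the main fit). Without Late Vehicle replicate 6, 2515 of 16703 genes were called for early minus late. In these fits the higher member counts came with higher counts over all genes. Exon-union length moved the level rank of 4 members. A second batch per timing would be needed to separate timing from batch.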

Other observations

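Early Vehicle replicates 4 and 5 had the lowest Cacna1e (5.09 and 4.94 log2 CPM), Cacna2d2 (5.33 and 5.77) and Cacna1b (3.87 and 2.67) of their group. The same held for Cacna1g (5.32 and 5.15), Cacna1c (3.62 and 3.45) and Cacna1d (3.40 and 3.66). It did not hold for Cacna1a, Cacna1h, Cacna2d1 or Cacna2d3. These libraries also had the lowest scaling factors of the early groups, 0.947 and 0.929, and replicate 4 gave 11.9% of its reads to Bc1. The part of these library features in the values was not tested.

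The Late SAFit2 mice with the lowest Cacna1d, replicates 1 and 5 (1.87 and 2.17 log2 CPM), were only in part the mice with the lowest Cacna1h, which were replicates 2 and 5 (2.59 and 2.82). Replicate 1 had the highest Cacna1h (3.59) and Cacna1b (4.12) of its group together with the lowest Cacna1c (2.76) and Cacna1d.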
